A study of Mus musculus with 8 samples.

Results

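Open chromatin at the loci of YAP, TAZ and 6 genes of their pathway was compared between NIH3T3 cells cultured on G2 and NIH3T3 cells cultured on G128, both for 24 h. The 8 loci were mm9 windows of 60 to 160 kb set around Yap1, Wwtr1, Lats2, Amotl2, Ccn1, Ccn2, Axl and Ankrd1, and any merged peak region overlapping a window was a member. This gave 47 regions of the 45915 regions of the series. The rule itself uses no accessibility value, but the windows were chosen with earlier results of these data known. The windows were not checked against an mm9 gene annotation, so the regions are named by window and number, counted from the lower coordinate, and their place in a gene (promoter, exon or intron) was not analysed here. A window may also hold other genes, so no region was assigned to the gene that its window is named after.

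NIH3T3 is an established mouse fibroblast line. ATAC-seq, in which the Tn5 transposase inserts adapters where DNA is exposed, was available for 2 libraries on G2 and 2 libraries on G128. The labels do not spell out G2 and G128. The series title names polyvinyl alcohol/gelatin hydrogels, and the design concerns how adhesion affects chromatin and RNA. RNA libraries were not analysed here, nor were fibroblast markers checked, since no mm9 annotation was used. Nothing says that replicates were separate cultures, so the spread between them may be technical.

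YAP and TAZ, encoded by Yap1 and Wwtr1, are transcriptional coactivators that do not bind DNA themselves and act mainly through TEAD factors. In the Hippo pathway the LATS kinases phosphorylate them and keep them out of the nucleus. In adherent cells such as fibroblasts, spreading, stiff substrates and actin tension are known to favour their nuclear localisation, which makes their targets a common readout of adhesion.

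TEAD factors bind the core GGAATG, or CATTCC on the other strand, so the promoters were searched for it first. The RefSeq promoter table (GRCm38.p6, 250 bases before to 50 after a gene's start) held 9 promoters of 7 of the 8 genes, all but Ccn2. The core was in 8 of these 9 promoters and in at least 1 promoter of each of the 7 genes. Of all promoters in the table, 14.7% held it, and 16.6% of all genes had it in at least 1 promoter. The 8 genes were picked as YAP, TAZ and genes of their pathway, so a high share among them is not independent support. The stretches below are the 5′ to 3′ sequence on the gene's strand, with up to 50 bases on each side of the core and none past the start. They are shown because the core is the feature these promoters share, and its letters are in capitals.
Yap1 (chr9:8004682-8004787, minus strand): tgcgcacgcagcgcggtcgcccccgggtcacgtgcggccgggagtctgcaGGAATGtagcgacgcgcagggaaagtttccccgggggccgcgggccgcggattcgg
Wwtr1 (chr3:57575991-57576096, minus strand): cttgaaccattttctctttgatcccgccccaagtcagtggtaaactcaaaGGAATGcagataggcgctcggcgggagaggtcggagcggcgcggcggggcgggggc
Amotl2 (chr9:102717689-102717794, plus strand): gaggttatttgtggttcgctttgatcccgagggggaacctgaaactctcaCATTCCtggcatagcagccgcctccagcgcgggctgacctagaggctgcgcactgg
Ccn1 (chr3:145650033-145650138, minus strand): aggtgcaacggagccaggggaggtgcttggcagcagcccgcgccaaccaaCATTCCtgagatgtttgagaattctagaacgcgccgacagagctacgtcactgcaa
Axl (chr7:25788911-25788983, minus strand): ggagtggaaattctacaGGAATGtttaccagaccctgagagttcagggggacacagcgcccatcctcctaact
Ankrd1 (chr19:36119912-36120017, minus strand): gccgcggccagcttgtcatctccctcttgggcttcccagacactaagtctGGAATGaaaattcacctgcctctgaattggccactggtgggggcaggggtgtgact

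The core began 65 bases before the start at Amotl2, 103 at Ccn1, 141 at Yap1 and 233 at Axl. Ankrd1 had it at 123 and at 210 bases before the start. Both Wwtr1 promoters held the same copy, at 136 and 170 bases before their own starts. At Lats2 it lay 5 bases into the transcript in one promoter and was not found in the other. Among other genes of the pathway the core was in 7 of 16 matched regulators (Ajuba, Mob1a, Ptpn14, Sav1, Tead3, Vgll3 and Vgll4, of 20 listed), which is 43.8%. It was in 2 of 12 matched further targets (Crim1 and Ptpn14, of 18 listed), which at 16.7% is near the 16.6% of all genes. Differences between these groups of genes were not tested. The AP-1 motif TGANTCA, which reads the same on both strands, was in 0 of the 9 promoters against 7.81% of all promoters, and the SRF CArG box was in 0 of 9 against 1.63%. These coordinates are on GRCm38.p6 and cannot be set against the mm9 peaks, so whether a peak covers a motif was not analysed. A match is a string of letters and not a site of binding.

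The libraries had 42358 and 41585 peaks on G2 and 32540 and 37695 on G128. Heights are given as the summit over the background, which is the number of overlapping intervals at a peak's highest point divided by the library's mean background. That background was 1.10 and 1.37 intervals per bp on G2, and 1.05 and 1.41 on G128. The weakest listed summit of a library was 18.2 to 18.97 times the background, and the deposited signal was never below 20. The thresholds of the peak calling are not given, so a region without a peak in a library was not shown to be closed there.

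Of the 47 regions, 28 (59.6%) had a peak in all 4 libraries, beside 60.5% of all regions of the series. Another 2 were listed by both G2 libraries but by no G128 library, which is 4.26% of the members where the background is 8.32%. None had a peak in both G128 libraries alone, where the background is 0.37%. A further 5 regions (10.6%) had a peak in every library except G128 replicate 1, as did 9.48% of all regions. Another 8 (17.0%) had a peak in a single G2 library, as did 12.6% of all regions. The remaining 4 were 1 each for G128 replicate 1 alone, both replicates 2, G2 replicate 2 with G128 replicate 1, and every library but G128 replicate 2. The windows held 42 and 44 peaks on G2 and 34 and 36 on G128. As a share of each list this was 0.0992% and 0.106% on G2, against 0.105% and 0.0955% on G128, so the groups overlapped once the length of the lists was taken into account.

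Density differed widely between the loci. Together the windows had 6.62 regions per 100 kb, beside 1.74 per 100 kb along all chromosomes, and 66.6% of all 50 kb tiles of the chromosomes had no region. Axl had the densest window with 15 regions per 100 kb, followed by Ccn1 with 13.3, while Yap1 had 1.67 per 100 kb. The windows were drawn around genes and the chromosomes include long stretches without any, and the part of this in the difference was not tested. The 28 regions found in all 4 libraries had a median width of 728 bp, beside 627 bp for all such regions, and ranged from 215 to 2534 bp. The spread of their summit position over the 4 libraries was 3 to 256 bp with a median of 47.5 bp, and it was within 50 bp in 16 of the 28. It was widest at the strongest region of Ccn2. The same spread was not computed over all regions.

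**Figure D1:**
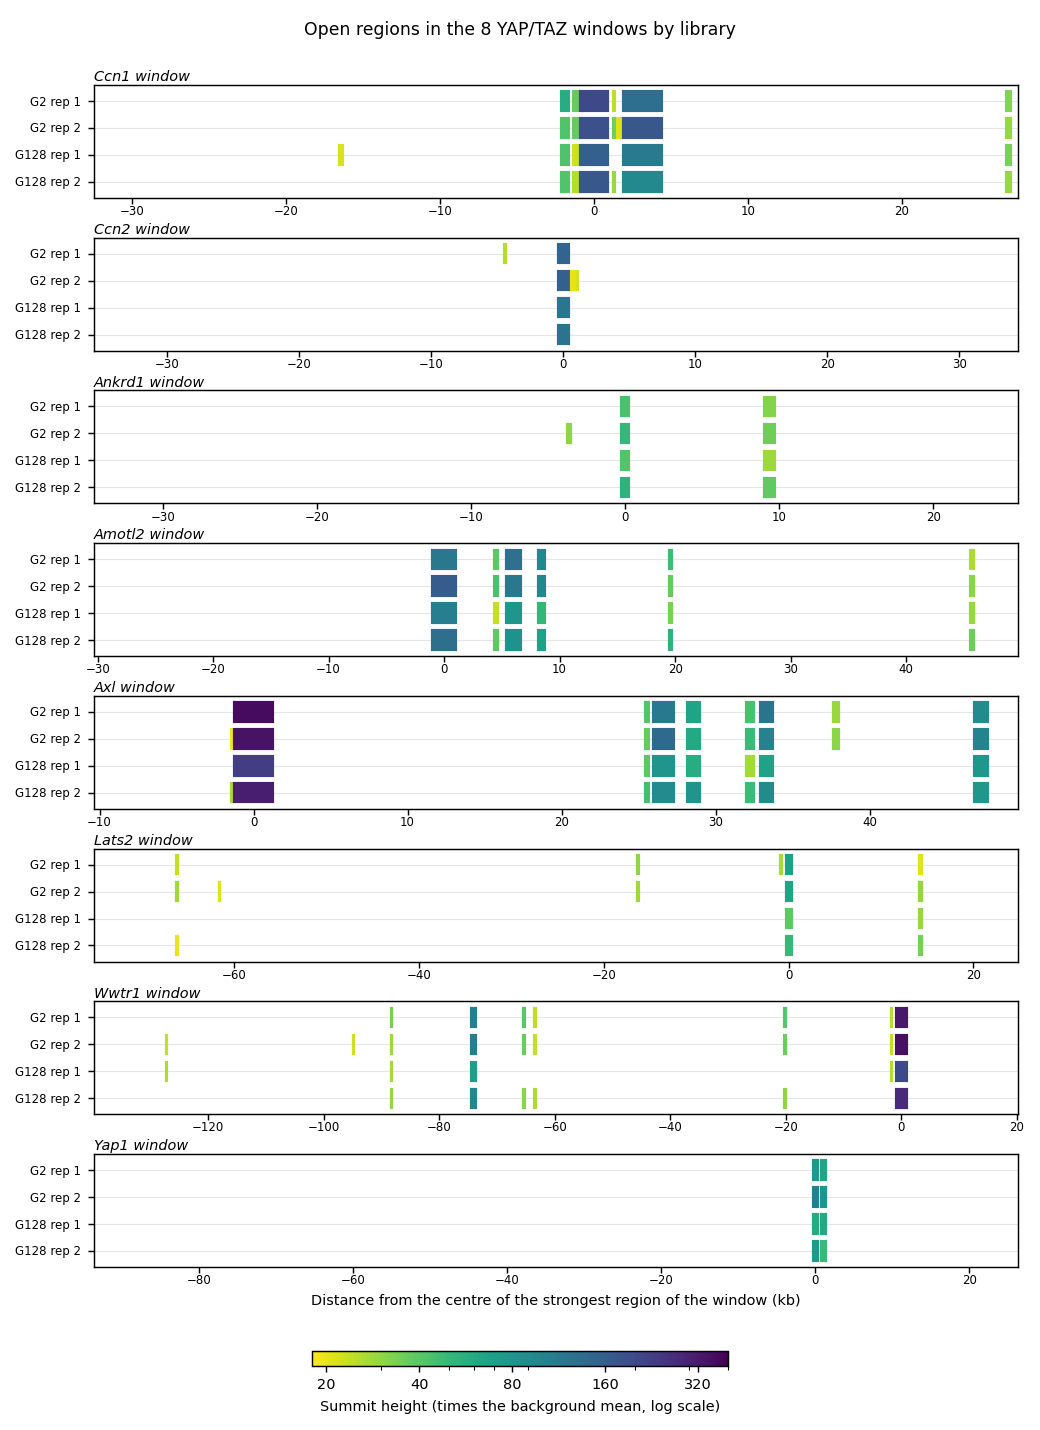
Map of the 8 windows, with distance from the centre of the strongest region of each window (kb) on the horizontal axis and 1 row per library, G2 above G128. Each rectangle is a merged region in which that library had a peak, coloured by its summit (times the background mean, log scale). The 6 regions of Amotl2 were present in every row, while Ccn2 had 1 region in all 4 rows and 3 in a single G2 library.

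The coactivators themselves had contrasting loci. TAZ had 9 regions in its 160 kb window and YAP 2 regions, 1.05 kb apart, in a window of 120 kb. The strongest region at Wwtr1 (region 9, chr3:57378804-57380772, 1969 bp) reached 326 and 351 times the background on G2, against 202 and 277 times on G128. Both G2 libraries were above both G128 libraries, as in 67.6% of all regions found in all 4 libraries. The means of this region were 339 ± 18.2 and 240 ± 53.0 (SD, n = 2 each), a ratio of 1.41. Its summit was higher than that of 95.5% of all regions found in all 4 libraries.

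After the summits of each library had been divided by that library's median over the 27768 regions found everywhere, the difference at Wwtr1 was smaller. The centred log2 difference of G2 minus G128 was 0.18 ± 0.15 (SE), with a 95% interval of −0.15 to 0.52 and an adjusted p of 0.616 in limma. A second strong region at Wwtr1 (region 4), 74.0 kb below the first, had summits of 108 and 109.6 times on G2 and 71.1 and 94.9 times on G128. It kept nearly the same proportion to the strongest region everywhere, at 33.2% and 31.2% on G2 and 35.2% and 34.3% on G128. Wwtr1 also held 3 of the 5 regions missing from G128 replicate 1 alone (regions 5, 6 and 7), whose summits in the other libraries were 24.1 to 40.9 times the background.

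At Yap1 the stronger of the regions (region 1, chr9:8003313-8004037, 725 bp) had summits of 75.5 and 107 times the background on G2 and 59.8 and 75.8 times on G128. G2 replicate 1 and G128 replicate 2 were level, so the groups overlapped. The centred log2 difference was 0.09 ± 0.18 (SE), with a 95% interval of −0.30 to 0.48 and an adjusted limma p of 0.861. Its neighbour (region 2, chr9:8004361-8005091) reached 64.6 and 78.2 times on G2 and 60.7 and 49.6 times on G128, without overlap. That neighbour is outside the rule for named regions.

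Among the negative regulators, Lats2 showed the widest contrast within a locus. LATS2 is the Hippo kinase that phosphorylates YAP and TAZ, and its gene is also known as one of their targets. Its strongest region (region 5, chr14:58364850-58365488, 639 bp) reached 68.2 and 65.8 times the background on G2, against 38.9 and 50.3 times on G128. The groups did not overlap, and the means were 67.0 ± 1.74 and 44.6 ± 8.07 (SD, n = 2 each), a ratio of 1.50. Centred, the difference was 0.27 ± 0.14 on the log2 scale (SE), with a 95% interval of −0.05 to 0.59 and an adjusted limma p of 0.436.

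A weaker region 14.3 kb above it (region 6, chr14:58379265-58379586, 322 bp) had the lowest centred difference of all 28 members. Its summits were 20.9 and 29.96 times the background on G2 and 29.4 and 34.7 times on G128, so the groups overlapped by a narrow margin before centring. The centred log2 difference was −0.68 ± 0.17 (SE), with an adjusted limma p of 0.142, which did not pass 0.05. Set against the strongest region of the same library, region 6 stood at 30.7% and 45.6% on G2 and at 75.6% and 69.0% on G128. Such a proportion cancels a single scaling factor per library, but not a difference between libraries that depends on summit height. This comparison was chosen after the values were seen, and region 6 lay near the weakest listed summits.

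Lats2 also held one of the 2 regions with peaks on G2 alone (region 3, chr14:58348808-58349014, 207 bp). It had summits of 30.02 and 28.5 times on G2, and neither G128 library listed a peak there. Of its other regions, region 1 was listed in all libraries but G128 replicate 1 with summits of 19.8 to 28.5 times, and regions 2 and 4 in a single G2 library at 21.2 and 27.3 times.

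Amotl2 encodes a scaffold of the angiomotin family that binds YAP and can hold it outside the nucleus, and it too is known as a YAP target. All 6 of its regions had peaks in all 4 libraries. The strongest (region 1, chr9:102619275-102621357, 2083 bp) had summits of 116 and 164 times the background on G2 and 107 and 131 times on G128. The groups overlapped, with a centred log2 difference of −0.12 ± 0.17 (SE) and an adjusted limma p of 0.807.

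The highest centred difference of all members was also at Amotl2, 8.41 kb above its strongest region (region 4, chr9:102628413-102629049, 637 bp). Its summits were 94.6 and 95.7 times the background on G2, against 51.2 and 68.0 times on G128. The G2 libraries nearly coincided and stood well apart from both G128 libraries, at a ratio of means of 1.60. Centred, the difference was 0.36 ± 0.15 on the log2 scale (SE), with a 95% interval of 0.04 to 0.68 that is not adjusted for the number of regions, and an adjusted limma p of 0.295. The next region below it (region 3) had a ratio of 1.50, whereas the most distant one, 45.7 kb from the strongest (region 6), had 28.9 times on G2 and 32.8 times on G128 as means, a ratio of 0.882.

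The secreted targets Ccn1 and Ccn2 encode CYR61 and CTGF, matricellular proteins of the extracellular matrix that bind integrins and are commonly used as readouts of YAP activity. At Ccn2 the window had 1 region in all libraries (region 2, chr10:24315113-24316009, 897 bp). It reached 149 and 157 times the background on G2 and 119 and 121 times on G128. Libraries of a group lay close together and the groups were apart, with means of 153 ± 5.59 and 119.9 ± 1.83 (SD, n = 2 each) and a ratio of 1.28. Centred on the library medians, the difference was 0.02 ± 0.14 on the log2 scale (SE), with a 95% interval of −0.30 to 0.34 and an adjusted limma p of 0.963. The other 3 regions of the window had a peak in 1 G2 library each, at 20.5 to 25.5 times the background.

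Ccn1 had a compact group of 6 regions from chr3:145310338 to 145316857. The strongest (region 4, chr3:145311566-145313363, 1798 bp) had summits of 201 and 188 times the background on G2 and 156 and 172 times on G128. The groups did not overlap, and the ratio of means was 1.19. The centred log2 difference was −0.08 ± 0.14 (SE), with a 95% interval of −0.40 to 0.23 and an adjusted limma p of 0.833. Region 7, the widest of the group with 2523 bp, had 133 and 172 times on G2 and 113 and 92.8 times on G128, a ratio of 1.48. That region was called as 2 peaks in both replicates 1 and as 1 peak in both replicates 2, as was the strongest region of Amotl2. The strongest region of Axl was called as 2 and 1 peaks in G2 replicates 1 and 2, and as 2 and 3 peaks in G128 replicates 1 and 2. Region 1 of Ccn1 was the only member listed in a single G128 library, replicate 1, at 21.8 times the background.

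AXL is a receptor tyrosine kinase of the TAM family, bound by the ligand GAS6, and its gene is a known YAP target. The Axl window had the strongest summit of all members and the most open sequence, with regions covering 13.1% of its 60 kb, beside 1.21% at Yap1. The strongest region (region 2, chr7:26539097-26541630, 2534 bp) reached 365 and 343 times the background on G2 and 230.5 and 307 times on G128, higher than 96.5% of all regions found in all 4 libraries. Whether this region belongs to Axl or to another gene was not analysed. Both G2 libraries were above both G128 libraries, and the means were 354 ± 15.6 and 269 ± 54.5 (SD, n = 2 each). Centred, the difference was 0.08 ± 0.15 on the log2 scale (SE), with a 95% interval of −0.25 to 0.41 and an adjusted limma p of 0.853.

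The other shared Axl regions lay 25.6 to 47.2 kb above the strongest one, and they did not move together. Regions 4 and 7 had ratios of G2 to G128 means of 1.48 and 1.42, while regions 3 and 5, close to them, had 0.929 and 0.925. The ratios within this window, 0.925 to 1.48, thus spanned nearly the range found among the strongest regions of the 8 loci, 0.984 to 1.50. Axl had the other of the 2 regions with peaks on G2 alone (region 8, chr7:26577975-26578373, 399 bp), at 29.1 and 30.7 times the background.

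Ankrd1, which encodes an ankyrin repeat protein found in muscle and in stressed or stretched cells, had the weakest strongest region. Region 2 (chr19:36194235-36194750, 516 bp) had summits of 43.7 and 50.4 times the background on G2 and 41.7 and 53.8 times on G128. The groups overlapped fully, and the ratio of means was 0.984. Because the library medians over all shared regions were higher on G2, centring turned this into a log2 difference of −0.35 ± 0.15 (SE), with an adjusted limma p of 0.324. Its second shared region, 9.38 kb away (region 3), was in the same proportion to the first in every library, at 72.9% and 71.0% on G2 and 68.2% and 71.1% on G128.

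**Figure D2:**
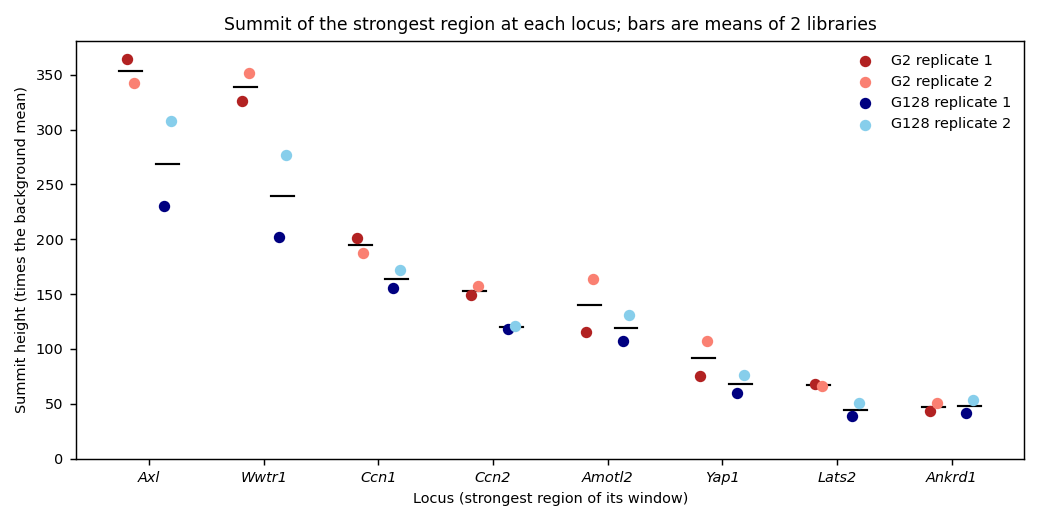
Summit of the strongest region at each locus, in times the background mean, with 1 point per library, G2 left of G128, and bars for the mean of 2 libraries. Both G2 points lay above both G128 points at Axl, Wwtr1, Ccn1, Ccn2 and Lats2, and the groups overlapped at Amotl2, Yap1 and Ankrd1. Without centring, both G2 libraries stood above both G128 libraries in 67.6% of all regions found in all 4 libraries.

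In order of mean height the strongest regions ran Axl (311 times the background over the 4 libraries), Wwtr1 (289), Ccn1 (179), Ccn2 (136), Amotl2 (129), Yap1 (79.6), Lats2 (55.8) and Ankrd1 (47.4). Neighbours in this order overlapped in their 4 values, except Wwtr1 and Ccn1, whose nearest values were 202 and 201 times. Taken library by library, Wwtr1 stood above Ccn1, Ccn1 above Ccn2, Amotl2 above Yap1 and Yap1 above Lats2 in all 4. The order of Axl and Wwtr1, of Ccn2 and Amotl2, and of Lats2 and Ankrd1 changed with the library. Lats2 and Ankrd1 lay below the middle of all regions found everywhere, of which 45.8% and 37.6% had lower summits.

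Across the 28 shared members the median summit over the background was higher on G2, as it was over all regions. The median log2 difference of G2 minus G128 was 0.36 over the members and 0.34 over all 27768 regions. Both G2 libraries stood above both G128 libraries in 15 of the 28 members (53.6%), where the background is 67.6%. The reverse held in 0 members, where the background is 2.79%. In limma, without centring, 8 members (28.6%) were called higher on G2 at an adjusted p under 0.05, where the background is 21.1%, and 0 were called lower, where it is 0.245% (0 members at an unadjusted p under 0.05). The 8 were regions 3 and 7 of Ccn1, 3 and 4 of Amotl2, 4 and 7 of Axl, 5 of Lats2 and 9 of Wwtr1, with log2 differences of 0.52 to 0.69. Every member had the same standard error in this fit, 0.199. The uncentred calls thus followed the size of the difference and not a region's own spread between replicates. A shift of a whole library also enters all its regions, so these calls are not independent of each other.

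The number of uncentred calls moved with the library left out. Members were called higher on G2 only without G128 replicate 2, where calls over all regions also rose. Each of the fits with a library left out has 1 library in a group and 1 residual degree of freedom. A lost call by itself therefore does not show that it rested on the library left out. The members' median log2 difference was 0.36 with all 4 libraries. It was above 0 in each of these fits, at 0.39 without G2 replicate 1, 0.30 without G2 replicate 2 and 0.36 without G128 replicate 2. It was lowest without G128 replicate 1, at 0.20 over 33 regions, which was the largest of these moves. G128 replicate 1 had the lowest of the 4 summits in 21 of the 28 members (75%), as it did in 71.1% of all regions. Its part in the difference between the cultures cannot be told apart with 2 libraries per group. An exact permutation test of 2 against 2 libraries cannot go below p = 0.333.

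Once each library was centred on its median, no member was called in either direction. The count was 0 of 28 higher and 0 of 28 lower, beside a background of 0% higher and 0% lower over all 27768 regions. At an unadjusted limma p under 0.05, 1 of 28 members was higher on G2, beside 1547 of 27768 regions. In the other direction 5 of 28 members were lower, beside 2408 of 27768 regions. The higher share was thus below that of all regions and the lower share above it, and neither difference was tested. With a variance trend and robust estimation, limma called 151 of all regions higher and 208 lower and again 0 members. The groups did not overlap in 6 members higher on G2 (21.4%, background 23.8%) and in 7 lower (25.0%, background 21.9%). The centred median was 0.02 over the members and 0.01 over all regions, and single members ranged from −0.68 to 0.36.

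**Figure D3:**
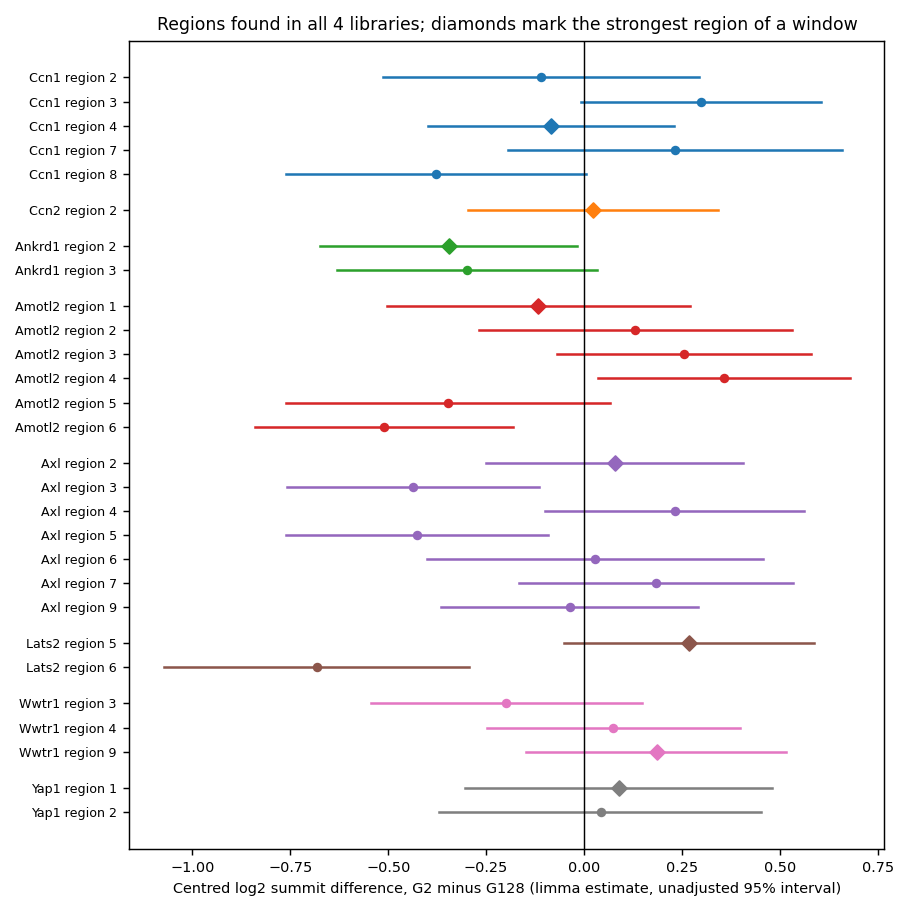
Centred log2 summit difference of G2 minus G128 for the 28 regions found in all 4 libraries, by locus, with limma's 95% interval, which is not adjusted for the number of regions. The estimates run from −0.68 at Lats2 region 6 to 0.36 at Amotl2 region 4, and diamonds mark the strongest region of each window.

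After centring, a larger share of the stronger than of the weaker regions was higher on G2, which was not tested. Of the 21 members whose mean summit was 40 times the background or more, 13 were higher on G2 after centring and their median log2 difference was 0.042, where all regions of that height had 0.045. Of the 7 weaker members, 2 were higher and their median was −0.30, where all weaker regions had −0.11. The same tilt was present genome-wide, with 59.1% of the stronger and 34.1% of the weaker regions higher on G2. Cyclic loess removed the tilt from all regions, with medians of 0.004 in the stronger and −0.002 in the weaker class, and left the 7 weaker members at −0.21. That value rests on 7 regions in 5 windows, and regions had to be listed in all 4 libraries to enter.

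**Figure D4:**
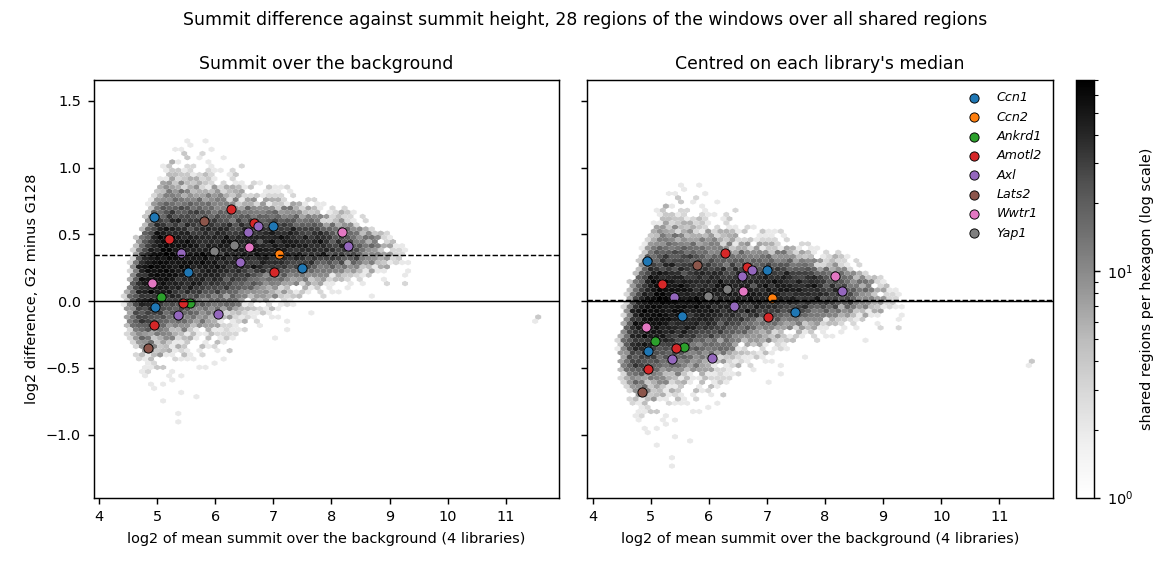
Log2 summit difference of G2 minus G128 (vertical) against the log2 of the mean summit over the background in the 4 libraries (horizontal), not centred on the left and centred on the right. Grey hexagons count all 27768 regions found in all 4 libraries on a log scale, coloured points are the 28 members by locus, and the dashed line is the median of all regions, at 0.34 and 0.01. The members lie within the cloud of all regions in both panels.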

How the data were processed

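ATAC-seq peak lists of 4 NIH3T3 libraries were used, grouped by their titles. Per the submitters' processing notes, the tools were Bowtie2 2.2.5, SAMtools 1.7, Genrich 0.5 and deepTools on build mm9, and their settings are not given in the sources used here. The deposited lists, made per library by the authors, hold for each peak a score, a signal, −log10 p-values and q-values, and the summit offset. The score and q-values were not used. The deposited signal, never below 20.0, served only in alternatives.

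Summit pileups were worked out from the p-values deposited as −log10. In each list the normal quantiles of the 100 lowest distinct p-values lay on a line against the log of consecutive integers (root mean square error 1.45e-07 to 1.58e-07, against 0.00164 to 0.00244 for the next best start). All pileups lay within 0.00179 of a whole number. Dividing by the fitted background mean scales for depth, and no interval was computed for a single summit, since overlapping intervals are not independent molecules.

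Peaks sharing at least 1 bp were merged. limma 3.58.1 in R 4.3.3 was fitted to log2 summits of the 27768 regions found in all 4 libraries, centred on library medians, and p-values were Benjamini-Hochberg adjusted over all of them. The computation was tested on simulated data. Named regions were the strongest of each window, those called, those of a single group, and the highest and lowest differences. Other regions were singled out after their values were seen. The windows, lists and motifs were chosen with earlier results of these data known. Promoter sequences are RefSeq's. Python 3.11.15, numpy 2.4.6, scipy 1.17.1 and pandas 2.3.3 were used.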

Additional observations from a re-analysis of the deposited data

How the results depend on the processing

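Without median centring, 8 members and 5869 of all regions were called higher on G2, 0 members and 68 regions lower, and the members' median log2 difference was 0.36. This leaves in the genome-wide difference of 0.34. Also leaving out a library, settings chosen after seeing the data, gave 0 members higher, except 11 without G128 replicate 2, and medians of 0.20 to 0.39 (0.295 without G2 replicate 2). Over all regions, higher and lower, this gave 101 and 1 without G2 replicate 1, 150 and 5 without G2 replicate 2, 0 and 0 without G128 replicate 1, and 12215 and 102 without G128 replicate 2. With centring or another scaling, counts of members called higher and lower stayed at 0 under every alternative run, except for the replicate block, with 1 member lower (Lats2 region 6). Over all regions, higher and lower, the block gave 274 and 656, trend and robust estimation 151 and 208, and summits of at least 40 times the background 27 and 29. Merging peaks within 500 bp gave 1 lower. With centring and each library left out, 0 to 3 were higher and 0 to 15 lower. Over the shared regions the deviations of same-numbered libraries were not correlated (0.003), which cannot show that the libraries were unpaired. Both replicates 1 had a lower background (1.10 on G2, 1.05 on G128) than both replicates 2 (1.37 and 1.41). The titles give only replicate numbers, so the block is given only as a setting.

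The members' centred median was −0.021 with quantile normalization, −0.16 with the deposited signal per region, −0.10 with the signal per bp, and −0.061 to 0.052 when each library was left out. It was also below 0 with cyclic loess (−0.015), peaks within 500 bp merged (−0.009) and windows widened by 20 kb (−0.008). It stayed above 0 with summits of at least 40 times the background (0.014) and with 500 bp windows around summits (0.02). With the block, with trend and robust estimation, and with regions wholly inside a window it was 0.025. The scaling, the measure, the merging, the windows or a single library thus turned its sign, and the cause was not tested.

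Strongest regions close to 0 changed sign. Ccn2 had −0.051 with quantile normalization, −0.044 with cyclic loess, −0.005 above 40 times the background, −0.32 with the signal and −0.26 per bp, and −0.051 to 0.115 with a library left out. Axl had −0.29 with the signal and −0.22 per bp, and −0.021 at the lowest with a library left out, and Wwtr1 had −0.22 with the signal. With centring and a library left out, Ccn1 kept its sign at −0.139 to −0.032, Amotl2 ran from −0.366 to 0.128 and Yap1 from −0.16 to 0.337. Without centring, Ccn1 had 0.25 and Amotl2 0.21. Without centring and with a library left out, Ccn1 ran from 0.174 to 0.321 (0.297 without G2 replicate 2), Amotl2 from −0.037 to 0.466 (0.069 and 0.359 between), Ankrd1 from −0.199 to 0.169 (0.089 without G2 replicate 1) and Ccn2 from 0.316 to 0.39. Large moves with the same sign were −0.841 at Ankrd1 and 0.865 at Lats2 with the signal summed over the region. The lowest adjusted p of any strongest region with centring or another scaling was 0.254. Lats2 and Wwtr1 passed without centring, at 0.60 and 0.52, and with Axl when G128 replicate 2 was also left out, at 0.784, 0.744 and 0.617.

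Members with peaks on G2 alone were 1 at a summit of at least 30 times the background and 3 to 8 with a library left out, where fewer libraries have to be met. Members on G128 alone were 1 with 500 bp windows around summits, 1 with 50% reciprocal overlap, and 0 to 1 with a library left out. Shares over all regions were not computed under these settings, so the counts are not a result about the members in particular. With 1 library left in a group, its spread was assumed to be that of the others.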
